A study of Mus musculus with 8 samples.

Results

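The regulators described here are 10 ligand-responsive or liver-enriched transcription factors that act above the metabolic genes of the liver: the xenobiotic receptors Nr1i2 (PXR), Nr1i3 (CAR) and Ahr, the sterol receptors Nr1h3 (LXRα) and Nr1h2 (LXRβ), the hormone receptors Thrb (TRβ) and Esr1 (ERα), and the hepatocyte factors Hnf4a, Nr5a2 (LRH-1) and Rxra, the common dimer partner. They were chosen by name from known function. A gene was read on the probe set annotated to it alone, and 9 of the 10 had exactly 1 such set among the 19939 genes tested. Nr1h2 was not analysed here. Whole-liver RNA came from male littermates 8 weeks old, backcrossed 5 times, and was read on 8 Affymetrix arrays. In 4 samples the gene of HMGB1, a chromatin protein that bends DNA, had been removed with Albumin-Cre (hereafter deleted 1 to 4). The other 4 carried floxed Hmgb1 without further manipulation named in the labels (control 1 to 4). The albumin promoter drives this recombinase in hepatocytes and their precursors, so most other liver cells keep the gene. Only the titles of the deleted group name Cre, and the recombinase itself cannot be told apart from loss of Hmgb1. The labels give C57Bl/6 in one field and Balb/c in another, and name both whole liver and liver stellate cells. Nothing in the labels says that each array is a separate mouse, and p-values then cover only the spread among the 8 arrays, which may be technical.

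Nuclear receptors bind DNA through a zinc finger domain, many of them as dimers with RXRα, and most switch between corepressors and coactivators when a ligand is bound. PXR and CAR detect drugs, bile acids and other foreign or endogenous lipids and induce cytochromes P450, conjugating enzymes and transporters. AHR belongs to another protein family (bHLH-PAS). It waits in the cytosol with chaperones, enters the nucleus with planar aromatic ligands and pairs there with ARNT. HNF4α is needed for hepatocyte identity, LXRs respond to oxysterols, and LRH-1 takes part in bile acid synthesis.

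The labels were checked on the targeted gene and on cell type markers. Hmgb1 had log2 intensities of 4.91, 4.20, 4.53 and 4.74 on the deleted and 5.35, 5.42, 5.45 and 5.78 on the control arrays. It fell by 0.91 (SE 0.14, limma adjusted p = 0.0216), a call that was lost without deleted 3, deleted 4, control 3 or control 4 (adjusted p of 0.0561 to 0.0797) and with all probe sets tested (0.0652). This probe set was dim, with a mean above that of only 16.4% of genes. Of 34 probe sets annotated to Hmgb1 together with other genes, 33 were lower in the deleted livers, with a median log2 fold change of −2.15. Albumin read 13.26 to 14.03 over the 8 arrays, 13.26 on deleted 4 and at least 13.93 on all others. None of the 8 stellate cell markers passed (0 of 8 by limma, 1 with an unadjusted p under 0.05, beside 9.46% of all genes). Their mean log2 level was 7.87 to 8.00 on deleted and 7.82 to 8.03 on control arrays. Both groups share the tissue labels, so this comparison cannot decide between whole liver and stellate cells. In level, albumin had a mean above that of 99.99% of genes, and the stellate cell markers above those of 55.6% to 87.7%. Control 1 stood apart: it lay outside the range of the other controls for 76.7% of all genes, against 34.2% to 56.0% for the other arrays within their groups.

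Transcripts of the receptors differed little between deleted and control livers, and none passed the test. With limma, 0 of 9 had an adjusted p under 0.05, where 0.692% of all genes did (138 genes, 59 or 0.296% higher and 79 or 0.396% lower; 153 and 111 after a further quantile normalization, 33 and 28 with arrays centred on their medians). At an unadjusted p under 0.05 there were 5 of 9, against 9.46% of all genes (4.93% higher and 4.53% lower). PXR, CAR and AHR were those with lower means and LXRα and ERα those with higher means in the deleted livers. All 9 receptors had means above the median of all genes. With only the 9968 genes above that median tested, 5 of 9 again had an unadjusted p under 0.05 by limma, against 14.3% of those genes. The groups did not overlap for 1 of 9, Nr1i2, which was lower, against 5.57% of all genes (3.27% higher and 2.3% lower). Means were higher in the deleted livers for 5 of 9 and lower for 4, against 49% and 49.8% of all genes, and the receptors' median log2 fold change was 0.035 beside 0 over all genes. The 95% interval lay within 1.5-fold in either direction for 8 of 9 receptors, all but Ahr, as it did for 97.2% of all genes. These receptors were proposed for description with earlier results of these arrays known, so the counts are no independent evidence of a shift.

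**Figure D1:**
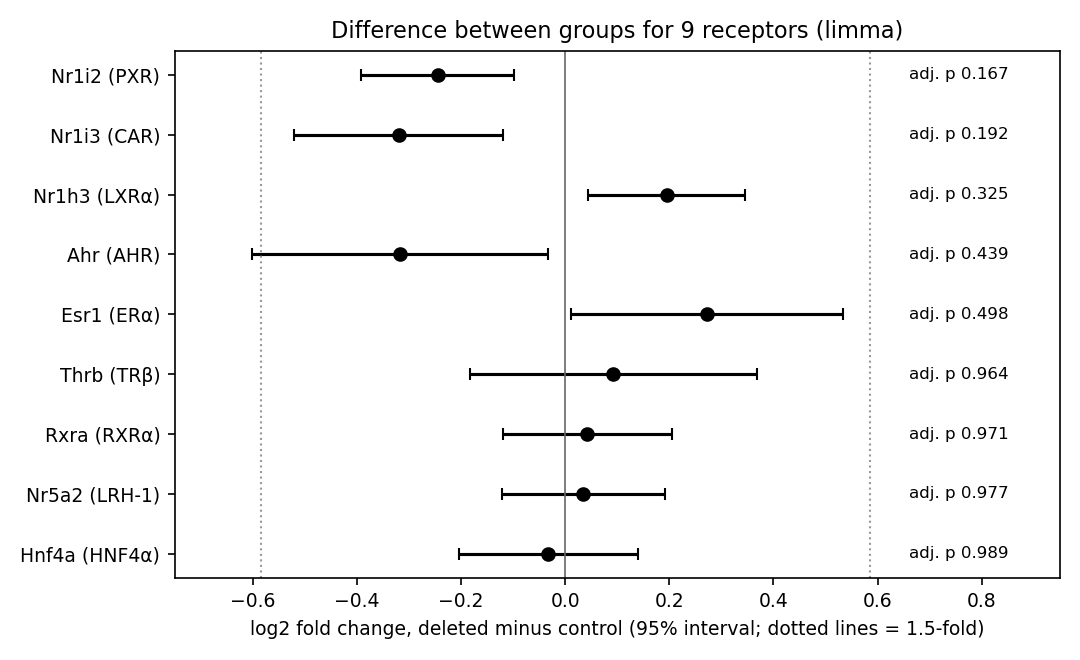
Log2 fold change (deleted minus control) with its 95% interval for the 9 measured receptors, ordered by p, with the limma adjusted p at the right and dotted lines at 1.5-fold. Intervals of the upper 5 exclude 0: Nr1i2 (−0.245), Nr1i3 (−0.32), Nr1h3 (0.195), Ahr (−0.32) and Esr1 (0.27). Those of the lower 4 include it.

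Among the xenobiotic receptors, PXR had the smallest p of the set. Nr1i2, which encodes this broad sensor of drugs and steroids, had log2 intensities of 9.53, 9.58, 9.63 and 9.62 on the deleted and 9.93, 9.70, 9.81 and 9.90 on the control arrays. All deleted arrays lay below all controls, with a gap of 0.07 between the nearest values. Its means were 9.59 ± 0.045 (SD, n = 4) and 9.84 ± 0.10 (SD, n = 4), a log2 fold change of −0.245 (1.19-fold lower; SE 0.066, limma adjusted p = 0.167). Over 17 alternatives the fold change stayed between −0.29 and −0.21 and the adjusted p between 0.0779 and 0.444.

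Nr1i3 encodes CAR, which is held in the cytosol and moves to the nucleus after phenobarbital-like compounds. It read 10.21, 10.21, 10.54 and 10.31 on the deleted and 10.76, 10.46, 10.65 and 10.68 on the control arrays. The groups overlapped only through deleted 3, which lay above control 2. Means were 10.32 ± 0.16 (SD, n = 4) against 10.64 ± 0.13 (SD, n = 4), a log2 fold change of −0.32 (1.25-fold lower; SE 0.091, limma adjusted p = 0.192). The value ran from −0.39 without deleted 3 to −0.28 without control 1.

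Ahr, the receptor for dioxin-like and tryptophan-derived ligands, was the most scattered of the set. It read 9.38, 9.22, 9.54 and 9.21 on the deleted and 9.99, 9.42, 9.44 and 9.77 on the control arrays, a range of 0.78 over all 8. Deleted 3 lay above both control 2 and control 3. The log2 fold change was −0.32 (SE 0.13, 95% interval −0.60 to −0.034, limma adjusted p = 0.439). Without control 1, the highest array, it was −0.21 (adjusted p = 0.429).

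**Figure D2:**
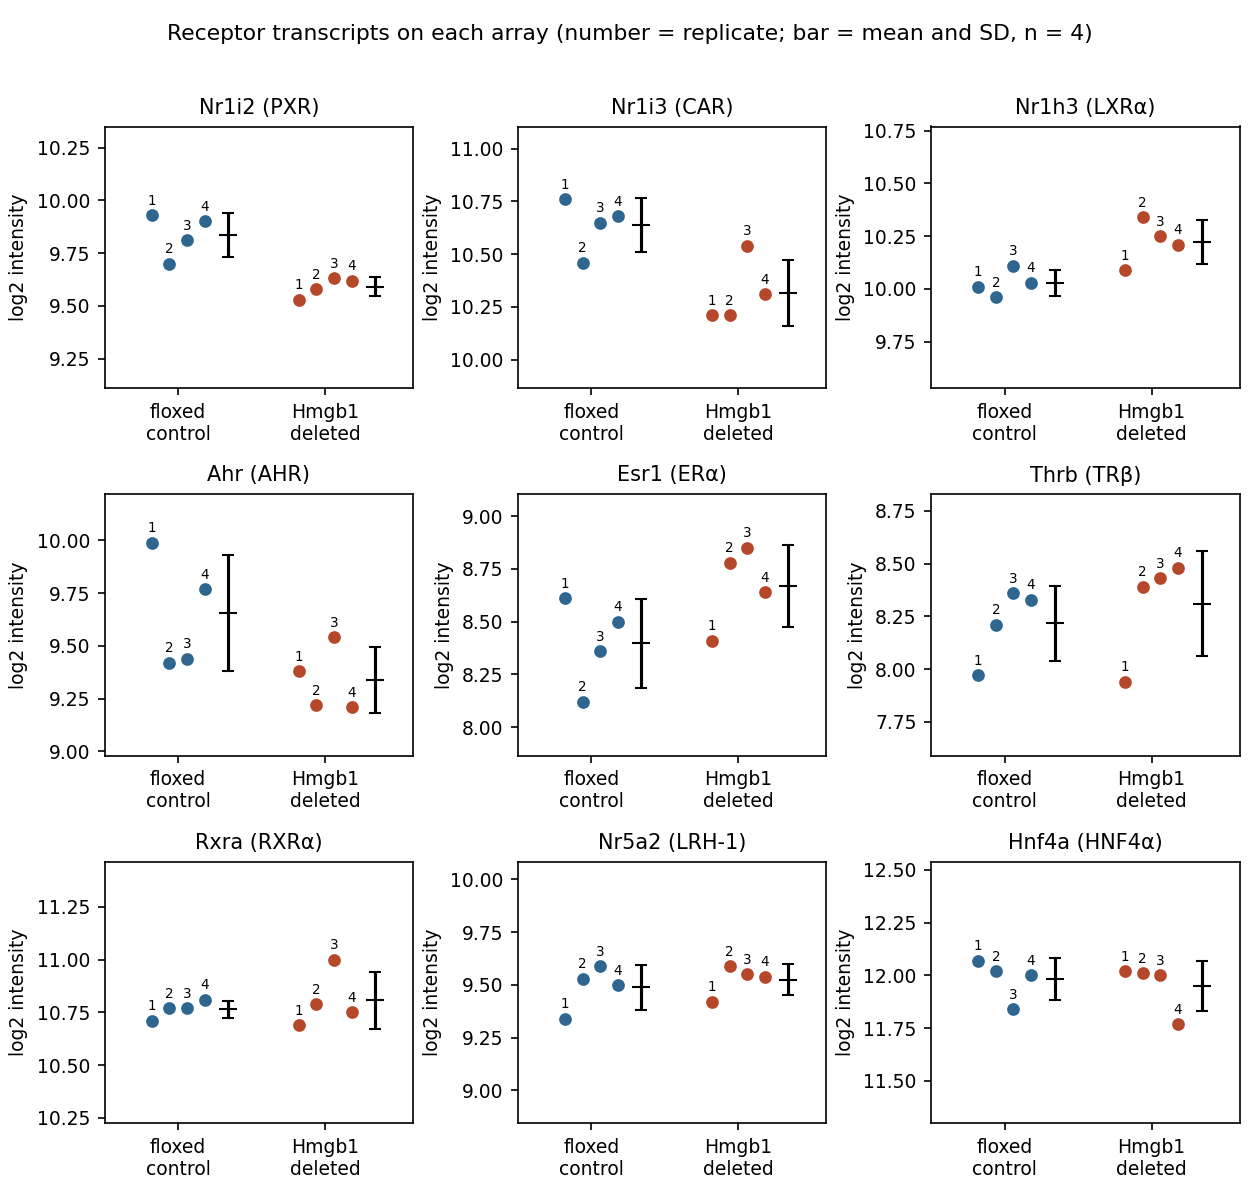
Log2 intensity of each receptor on the 4 control (blue) and 4 deleted (red) arrays, each dot labelled with its replicate number, with the group mean and SD beside it. All panels span the same log2 distance. Only for Nr1i2 do the groups separate, with deleted arrays at 9.53 to 9.63 and controls at 9.70 to 9.93.

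The stretches upstream of PXR and CAR are shown because these 2 receptors had the smallest p of the set, and that of LXRα because it came next, with the opposite sign. Promoter windows from RefSeq (GRCm38.p6) were found for 9 of the 10 genes, all but Ahr. Each sequence covers 250 to 51 bases before an annotated start on the gene's strand: chr16:38294875-38295074 for Nr1i2 (minus strand), chr1:171213720-171213919 for Nr1i3 (plus strand), chr2:91195167-91195366 for Nr1h3 (minus strand, one of its starts), and chr1:136960499-136960698 for Nr5a2 (minus strand, one of its starts), which is given as an example of a window with a match. Capitals mark exact matches on either strand to the receptor half-site AGGTCA, to AGTTCA, or to the AHR core GCGTG.
Nr1i2: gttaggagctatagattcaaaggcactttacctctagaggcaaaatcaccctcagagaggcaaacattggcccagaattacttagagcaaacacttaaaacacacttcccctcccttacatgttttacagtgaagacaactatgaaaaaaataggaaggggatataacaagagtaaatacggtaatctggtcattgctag
Nr1i3: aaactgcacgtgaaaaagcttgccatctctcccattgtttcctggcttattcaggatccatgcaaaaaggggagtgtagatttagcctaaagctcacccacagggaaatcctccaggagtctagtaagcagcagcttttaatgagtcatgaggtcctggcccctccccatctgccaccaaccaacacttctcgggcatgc
Nr1h3: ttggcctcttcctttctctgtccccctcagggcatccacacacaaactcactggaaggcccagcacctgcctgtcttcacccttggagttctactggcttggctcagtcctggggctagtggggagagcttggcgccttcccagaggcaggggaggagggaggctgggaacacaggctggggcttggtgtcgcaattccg
Nr5a2: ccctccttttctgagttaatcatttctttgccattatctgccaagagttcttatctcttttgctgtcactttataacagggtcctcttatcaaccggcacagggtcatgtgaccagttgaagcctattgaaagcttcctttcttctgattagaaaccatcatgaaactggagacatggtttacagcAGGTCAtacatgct
The windows of Nr1i2, Nr1i3 and Nr1h3 held none of these words. The half-site AGGTCA or its reverse TGACCT was present in 11.4% of 32851 windows of 200 bases over all genes, AGTTCA or TGAACT in 9.98% and GCGTG or CACGC in 22.6%. Besides Nr5a2, the half-site was found before a start of Rxra and one of Thrb. These are matches of letters and not binding sites.

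Across the 8 arrays CAR was the receptor nearest to PXR. Profiles were centred on the array median and the gene's own mean, and the mean absolute difference from Nr1i2 was taken on the log2 scale over the 8 arrays. It was 0.075 for Nr1i3, 0.14 for Ahr, and between 0.14 and 0.26 for the other receptors. Only 1.05% of the 10878 genes compared, those with enough spread over the arrays, were nearer to Nr1i2 than Nr1i3 was. The nearest 5 were Slc35g1 (0.033), Acer2, an alkaline ceramidase (0.035), Khk, ketohexokinase (0.035), Srsf4, a splicing factor (0.039), and Pnpla2, the adipose triglyceride lipase (0.040). Their log2 fold changes ran from −0.29 to −0.23, and none passed (limma adjusted p of 0.109 to 0.313). The likeness includes the difference between groups, since both were on the same arrays.

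**Figure D3:**
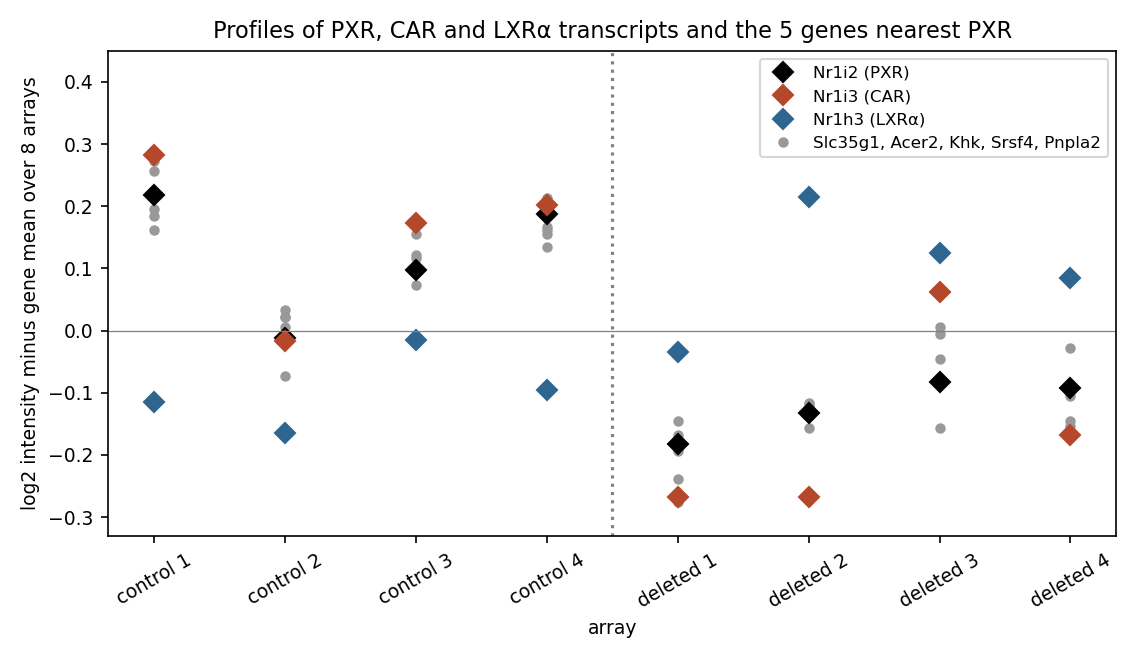
Log2 intensity minus the gene's mean over 8 arrays for Nr1i2, Nr1i3 and Nr1h3 (diamonds) and for the 5 genes nearest to Nr1i2 (grey dots), controls left of the dotted line and deleted arrays right of it. Nr1i2 and Nr1i3 are both highest on control 1 and near their mean on control 2, whereas Nr1h3 lies below its mean on all 4 controls and on deleted 1.

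LXRα, which senses oxysterols and drives cholesterol efflux and fatty acid synthesis genes, had the higher mean in the deleted livers. Nr1h3 read 10.09, 10.34, 10.25 and 10.21 on the deleted and 10.01, 9.96, 10.11 and 10.03 on the control arrays. The groups overlapped by 0.02, through deleted 1 and control 3. The log2 fold change was 0.195 (1.14-fold higher; SE 0.068, limma adjusted p = 0.325), between 0.16 and 0.24 over the alternatives. It was the only receptor for which control 1 lay within the other controls.

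The hormone receptors were scattered within both groups. Esr1, the estrogen receptor expressed by hepatocytes, read 8.41, 8.78, 8.85 and 8.64 on the deleted and 8.61, 8.12, 8.36 and 8.50 on the control arrays. Deleted 1 lay below 2 of the 4 controls. Its log2 fold change was 0.27 (SE 0.12, 95% interval 0.010 to 0.53, limma adjusted p = 0.498), 0.18 without control 2 and 0.36 without deleted 1. Thrb, the main thyroid hormone receptor of liver, read 7.94, 8.39, 8.43 and 8.48 on the deleted and 7.97, 8.21, 8.36 and 8.33 on the control arrays. Both arrays numbered 1 lay at the bottom of their groups. The log2 fold change was 0.092 (95% interval −0.18 to 0.37, limma adjusted p = 0.964), 0.22 without deleted 1 and 0.010 without control 1.

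The hepatocyte factors had the smallest differences. Hnf4a read 12.02, 12.01, 12.00 and 11.77 on the deleted and 12.07, 12.02, 11.84 and 12.00 on the control arrays. One array in each group, deleted 4 and control 3, lay below the rest. The log2 fold change was −0.0325 (95% interval −0.20 to 0.14, limma adjusted p = 0.989). Rxra read 10.69, 10.79, 11.00 and 10.75 on the deleted and 10.71, 10.77, 10.77 and 10.81 on the control arrays, a log2 fold change of 0.0425 (95% interval −0.12 to 0.20, adjusted p = 0.971), with deleted 3 alone above every other array. Nr5a2 read 9.42, 9.59, 9.55 and 9.54 on the deleted and 9.34, 9.53, 9.59 and 9.50 on the control arrays, a log2 fold change of 0.035 (95% interval −0.12 to 0.19, adjusted p = 0.977). Its 2 lowest values were those of the arrays numbered 1. The signs of these 3 are not settled: each turned under at least 1 alternative, Hnf4a to 0.057 after a further quantile normalization and to 0.028 without deleted 4, Rxra to −0.022 without deleted 3 and Nr5a2 to −0.015 without control 1. Their 95% intervals lay within 1.5-fold, which does not show equal levels.

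Control 1 stood apart for most of the set, as it did for most genes. It lay outside the range of the other 3 controls for 8 of the 9 receptors, beside 76.7% of all genes. It was above them for Nr1i2, Nr1i3, Ahr, Hnf4a and Esr1 and below them for Rxra, Thrb and Nr5a2. Without it, 0 of 9 passed by limma, where 321 of 19939 genes did. At an unadjusted p under 0.05 there were then 4 of 9, beside 14.0% of all genes. The log2 fold change was then −0.21 for Nr1i2, −0.28 for Nr1i3, 0.19 for Nr1h3 and 0.34 for Esr1.

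**Figure D4:**
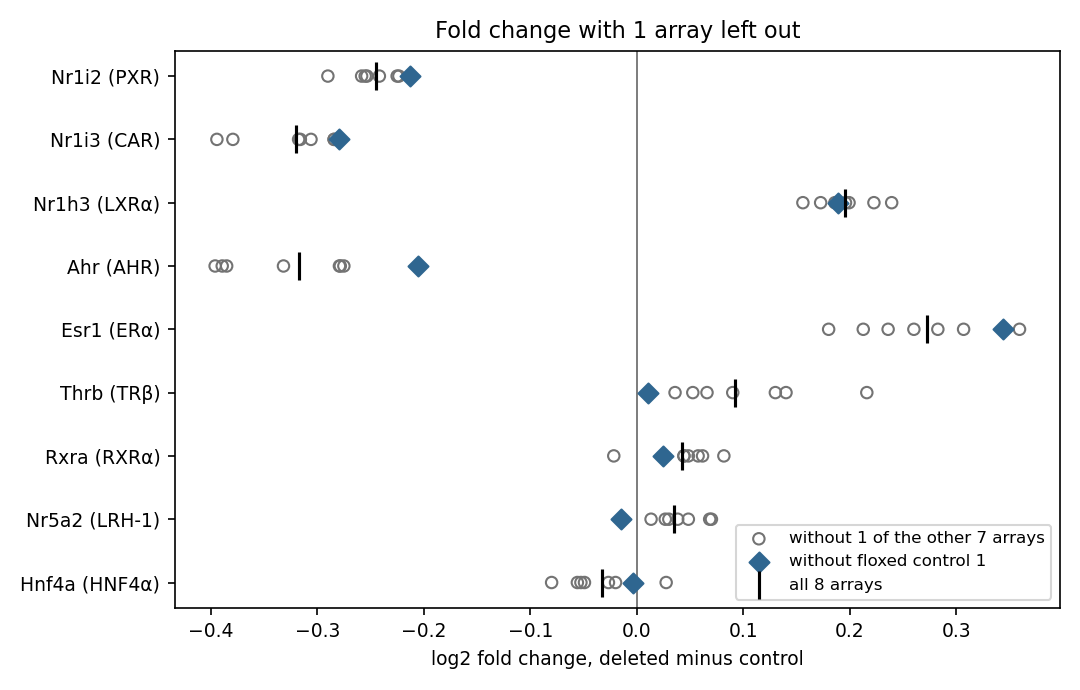
Log2 fold change (deleted minus control) of each receptor with all 8 arrays (black bar), without floxed control 1 (blue diamond) and without each of the other 7 arrays (open circles). Nr1i2, Nr1i3, Ahr, Nr1h3, Esr1 and Thrb keep their sign, and Hnf4a, Rxra and Nr5a2 do not.

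Of the other nuclear receptors, 37 of 40 were measured and 1 passed, beside 0.692% of all genes. This was Ppara, which controls fatty acid oxidation and, like PXR and CAR, binds DNA with RXRα. Ppara read 10.22, 10.31, 10.41 and 10.19 on the deleted and 10.53, 10.81, 10.88 and 10.87 on the control arrays. It fell by 0.49 (SE 0.088, limma adjusted p = 0.0367). The call was kept without control 1 (adjusted p = 0.00294) and lost without any of the other 7 arrays (0.0653 to 0.164). Next were Rxrg, another RXR (0.52, SE 0.12, adjusted p = 0.0922), and Ppard (0.49, SE 0.12, adjusted p = 0.128), both with all deleted arrays above all controls. Ppard passed without control 1 (adjusted p = 0.00746). By limma 6 of the 37 were higher and 4 lower at an unadjusted p under 0.05, beside 4.93% and 4.53% of all genes. Groups did not overlap for 5 of the 37, 4 higher and 1 lower, beside 3.27% and 2.3% of all genes. In all 20 of the 37 were higher and 17 lower (24 and 13 with centred arrays, 23 and 14 after a further quantile normalization), with a median log2 fold change of 0.023, beside 0 over all genes.

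Of 23 partners, chaperones and coregulators 19 were measured and 0 passed by limma, with 2 at an unadjusted p under 0.05, both lower (4.53% of all genes were lower at that p). These were the PGC-1 coactivators, which raise the activity of many nuclear receptors. Ppargc1b read 7.13, 7.30, 7.33 and 7.10 on the deleted and 7.50, 7.63, 7.62 and 7.52 on the control arrays, a log2 fold change of −0.35 (SE 0.072, adjusted p = 0.0618, 0.0357 without control 1). Ppargc1a read 7.37, 8.14, 7.70 and 7.79 against 9.14, 8.21, 8.27 and 8.65, a log2 fold change of −0.82 (SE 0.21, adjusted p = 0.134). Every deleted array lay below every control for both. Next was Ptges3, the p23 cochaperone of HSP90, at −0.20 (adjusted p = 0.656). Without control 1 Ptges3 had −0.32 and passed (adjusted p = 0.0377). The AHR partner Arnt had 0.023 (adjusted p = 0.992).

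Known target genes were read beside their receptors. Over all pathway lists, which share some genes, 6 of 121 measured genes passed, or 4.96%, 1 higher and 5 lower, beside 0.692% of all genes (0.296% higher and 0.396% lower). With all probe sets tested or with arrays centred on their medians, 1 passed, Srebf1 (adjusted p of 0.0328 and 0.0284), and the other 5 had adjusted p of 0.0652 to 0.128. With single arrays left out this count was 2 without deleted 1, 1 without deleted 3, 0 without deleted 4, 11 without control 1 and 1 without control 2, control 3 or control 4. The lists were drawn up with earlier results of these arrays in view, so the share is no independent evidence. Of 24 PXR and CAR targets 19 were measured, and 2 fell while 17 did not pass. Slco1a4, an uptake transporter of organic anions, read 7.02, 7.68, 6.31 and 7.23 on the deleted and 7.89, 8.81, 8.58 and 8.75 on the control arrays, and fell by 1.45 (SE 0.27, limma adjusted p = 0.0430). Cyp2c55, a cytochrome P450 of the 2C family, fell by 0.72 (SE 0.13, adjusted p = 0.0337). Its probe set was rather dim, with a mean above that of only 41.4% of genes. All deleted values lay below all controls for both genes, and each call was lost without any 1 array other than deleted 2 or control 1 (adjusted p of up to 0.173 for Slco1a4 and 0.131 for Cyp2c55). Alas1, the first enzyme of heme synthesis, had 0.42 (adjusted p = 0.420). The prototype targets did not pass: Cyp2b10, the marker of CAR activity, had 0.11 (SE 0.37, adjusted p = 0.992) and Cyp3a11, that of PXR, had −0.070 (SE 0.15, adjusted p = 0.978). Both values lean on control 1. It was the highest control for Cyp2b10 (11.00 against 9.13 to 10.05) and the lowest for Cyp3a11 (12.17 against 12.72 to 12.81). These 2 genes were not tested without it, so the values do not show that they were unchanged. The list's median was −0.018, with 8 higher and 11 lower, and 12 higher and 7 lower after a further quantile normalization.

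Of 7 measured AHR targets 0 passed by limma and 1 had an unadjusted p under 0.05, as did 9.46% of all genes. This was Cyp1a2, the constitutive P450 of pericentral hepatocytes, which read 11.85, 12.03, 12.00 and 11.77 on the deleted and 12.21, 12.19, 12.20 and 12.21 on the control arrays. The controls spanned 0.02 and lay above all deleted arrays, and the log2 fold change was −0.29 (SE 0.069, limma adjusted p = 0.111). The ligand-induced targets Cyp1a1 (−0.10, adjusted p = 0.810) and Tiparp (−0.090, adjusted p = 0.928) differed less. Cyp1a1 was dim, with a mean above that of only 26.8% of genes, and Tiparp was above 51.6%. Only 2 of the 7 targets had a mean above the median of all genes, so small differences here say little about AHR activity.

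LXR targets went both ways. Of 13 measured, 1 rose and 2 fell, beside 0.296% and 0.396% of all genes. Srebf1, the transcription factor of lipid synthesis, read 9.23, 9.84, 9.76 and 9.57 on the deleted and 8.73, 8.83, 8.76 and 8.75 on the control arrays, a rise of 0.83 (SE 0.11, limma adjusted p = 0.0121; 0.0509 without deleted 4). Mylip, the ubiquitin ligase that degrades the LDL receptor, fell by 0.41 (SE 0.071, adjusted p = 0.0285), and Lpl, lipoprotein lipase, fell by 0.85 (SE 0.16, adjusted p = 0.0474). Mylip lost its call without any 1 array other than deleted 2 or control 1 (adjusted p of 0.0554 to 0.131), and Lpl without any but control 1 (0.0739 to 0.182). The sterol exporter Abca1 had 0.22 (adjusted p = 0.296) and Fasn 0.76 (adjusted p = 0.0827), both with all deleted arrays above all controls. These 2 were picked after their values were seen, and with Srebf1 they are all 3 of the higher targets. The 10 lower ones include other sterol exporters, Abcg1, Abcg5 and Abcg8. At an unadjusted p under 0.05, 3 were higher and 3 lower, beside 4.93% and 4.53% of all genes. The list's median was −0.13, with 3 higher and 10 lower, and −0.076, with 4 higher and 9 lower, after a further quantile normalization.

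**Figure D5:**
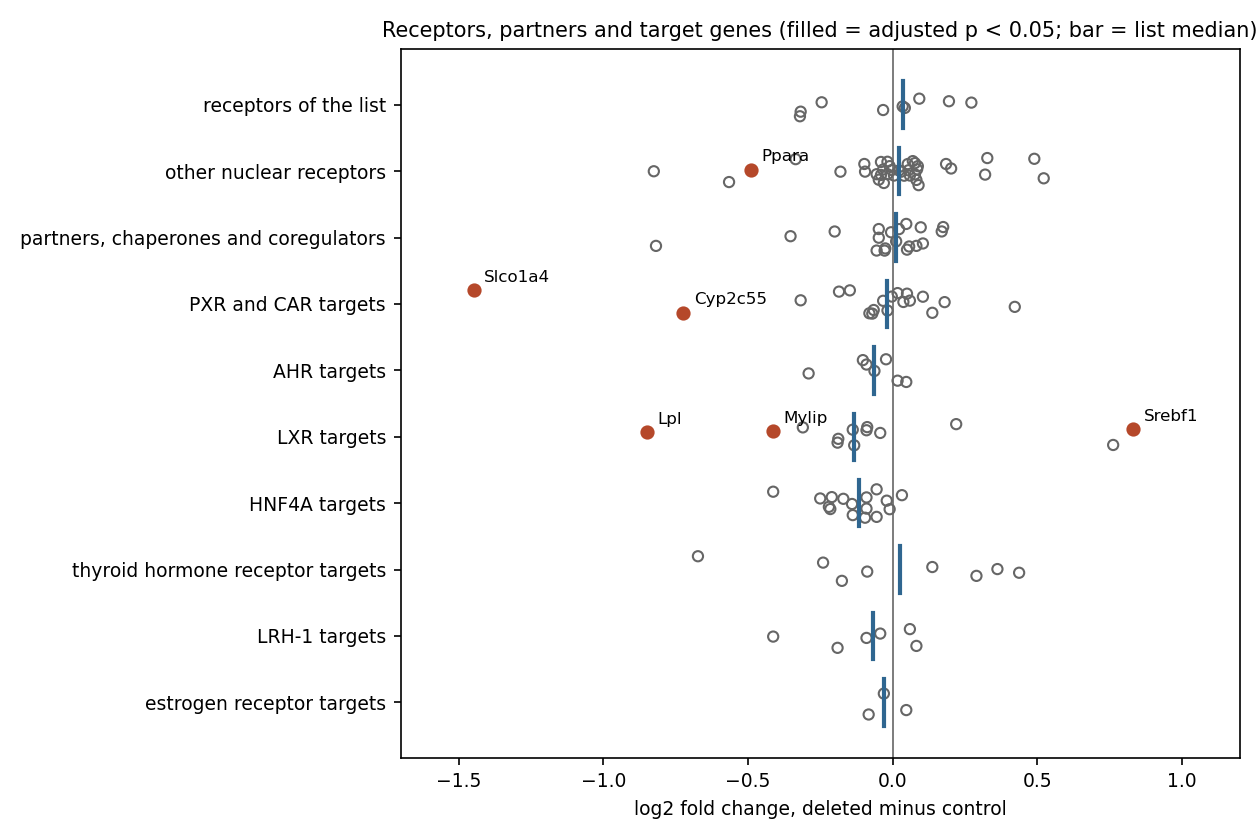
Log2 fold change (deleted minus control) of every measured gene in each list, with filled dots for an adjusted p under 0.05 and a blue bar at the list's median. The 6 filled genes are Ppara, Slco1a4, Cyp2c55, Lpl, Mylip and Srebf1, and the row of receptors at the top has none.

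For HNF4α, 16 of 19 targets were measured, 15 lower and 1 higher, beside 49.8% of all genes lower and 49% higher. The 16 were bright, with means above those of 92.4% to 99.98% of genes, so all genes are not matched to them in level. By limma 0 passed, and 4 were lower at an unadjusted p under 0.05, beside 4.53% of all genes. Cyp8b1, the sterol 12α-hydroxylase, had −0.41 (SE 0.11, limma adjusted p = 0.161; −0.51 and 0.0185 without control 1), Ttr, transthyretin, −0.25 (adjusted p = 0.340) and Pck1, a gluconeogenic enzyme, −0.22 (adjusted p = 0.429). The median of −0.12 moved to −0.060 without deleted 4, where 13 were lower, and to −0.022 after a further quantile normalization, where 10 were lower and 6 higher. Of 8 thyroid hormone receptor targets 0 passed by limma and 5 had an unadjusted p under 0.05, beside 9.46% of all genes. Me1, malic enzyme, had −0.67 (adjusted p = 0.196), Gpd2, the mitochondrial glycerol phosphate dehydrogenase, 0.36 (0.285), and Klf9 −0.24 (0.353), 4 of the 8 being higher and 4 lower. Without control 1 Me1 had −0.84 and passed (adjusted p = 0.0283), and Gpd2 had 0.23. Of 6 measured LRH-1 targets 0 passed by limma, and only Cyp8b1, shared with the HNF4α list, had an unadjusted p under 0.05, beside 9.46% of all genes. Abcg8, a sterol transporter subunit, had −0.19 (adjusted p = 0.807) and Scarb1, the HDL receptor, 0.060 (0.971). Of 3 measured estrogen receptor targets 0 passed by limma at either threshold: Agt, angiotensinogen, had −0.083, Greb1 0.048 and Pgr −0.030.

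Whole liver mixes cell types, and in such samples fewer cells of a type and less RNA per cell cannot be told apart. Beside the lower values of PXR, CAR and AHR, all 6 sinusoidal endothelial markers were lower. Their mean log2 level was 9.37 to 9.41 on deleted and 9.65 to 9.76 on control arrays. Of the 6, 1 passed, the lectin Clec4g (−0.61, limma adjusted p = 0.00629), beside 0.692% of all genes. At an unadjusted p under 0.05, 5 of the 6 were lower, beside 4.53% of all genes. With the probe sets of a gene averaged (Clec4g has 2), 0 of 6 passed by limma. Hepatocyte markers were lower for 5 of 6, with 0 passing by limma and 1 at an unadjusted p under 0.05 (9.46% of all genes). Their median log2 fold change of −0.17 became −0.070 without deleted 4 and −0.026, with 3 higher and 3 lower, after a further quantile normalization. Their mean level was 12.93 to 13.39 on deleted and 13.36 to 13.44 on control arrays. Ttr and Apoa1 are also on the HNF4α list, so these lists are not separate observations. Deleted 4 had the lowest albumin and Hnf4a values. Kupffer cell (6 measured), cholangiocyte (5) and lymphocyte (5) markers held 0 genes past the threshold by limma. At an unadjusted p under 0.05 they held 1, 1 and 0, beside 9.46% of all genes. The mean level of the cholangiocyte markers was 5.68 to 5.92 on deleted and 5.92 to 5.99 on control arrays. The part of these markers in the receptor values was not tested.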

How the data were processed

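Whole-liver RNA (150 ng) was amplified and labelled per the labels' protocols. RMA, named in the submitters' processing notes, corrects background, normalizes between arrays and sums probes into sets. The deposited values, taken as log2 intensities from their range, were made by the authors. Genome build: not given in the sources used here. Of 35556 probe sets, GEO's annotation gave 21789 a single symbol and 1621 several. For each of 19939 genes the single-symbol set with the highest mean over 8 arrays was used, with no filter on dim sets. Groups were compared with limma 3.58.1 in R 4.3.3 (lmFit, eBayes, 2-sided, no covariate), with Benjamini-Hochberg adjustment over all genes and a threshold of 0.05. Tested on simulated data, the fit recovered larger changes but missed part of the 1.5-fold ones, and the pass condition, which first asked for more of these, was loosened after that was seen. Changes of that size or smaller can therefore be missed. The members and lists were chosen with earlier results of these data known. Named genes were Hmgb1, the members and, per pathway list, every gene past the threshold, filled to 3 by smallest p, plus the 5 genes nearest the member with the smallest p. Arnt, Cyp2b9, Cyp2b10, Cyp2b13, Cyp3a11, Abca1, Fasn, Clec4g and Alb were named after their values were seen. Abcg1, Abcg5 and Apoa1 were also named then, without values. Of 139 distinct pathway genes 18 were not measured, 5 of them lying only on sets shared by several genes. Precision is limited by the number of arrays. Figures used Python 3.11.15 and matplotlib 3.10.9. Alternatives are given in the closing section.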

Additional observations from a re-analysis of the deposited data

Results flagged for a closer look

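For Hmgb1, the receptors and the other genes given with values, the highest and lowest array of a group were compared with the next value, and the gap was set against the spread of all 4 arrays by Dixon's criterion at the 95% level. Of 100 such groups 8 passed, where chance gives about 1 in 20, or 5. Among them were receptors of the set: Hnf4a read 11.77 on deleted 4 against 12.00 to 12.02 on the other deleted arrays, and Thrb read 7.94 on deleted 1 against 8.39 to 8.48. On floxed control 1, Lpl read 7.41 against 8.12 to 8.21 on the other controls, Me1 9.97 against 10.61 to 10.70 and Gpd2 7.93 against 8.45 to 8.50. Cyp3a11 was also low on that array, at 12.17 against 12.72 to 12.81. On deleted 4, Alb read 13.26 against 13.93 to 14.03 and Slc35g1 9.22 against 9.15 to 9.16 on the other deleted arrays. Alb and Cyp3a11 were named after their values were seen, so the count of 8 beside 5 is not independent of that choice.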

How the results depend on the processing

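No receptor passed in any of the 17 alternatives (0 of 9 by limma in each). At an unadjusted p under 0.05 there were 2 to 6 of 9, beside 7.48% to 15.6% of all genes. The count of all genes was 264 after a further quantile normalization, 61 with arrays centred on their medians, 526 with array weights, 325 with the replicate number as a block and 37 to 321 with 1 array left out. The count of pathway genes was 1 with all probe sets, 1 with centred arrays, 14 with array weights, 13 with the replicate block and 0 to 11 with 1 array left out. Same-numbered arrays had correlations of their deviations of 0.447, 0.0652, −0.0814 and 0.422, and differently numbered ones −0.485 to 0.327. The arrays numbered 1 and those numbered 4 were thus the most alike, but not every array was nearest its own number. The labels name no pairing, and the main fit used none. Whether the numbers pair samples was not tested, so a pairing remains possible. After a further quantile normalization, Hnf4a had 0.057 and Agt 0.0084, signs opposite to the reported ones. With 1 array left out, signs turned for Hnf4a (−0.080 to 0.028), Rxra (−0.022 to 0.082), Nr5a2 (−0.015 to 0.070), Scarb1 (−0.011 to 0.15), Greb1 (−0.0017 to 0.14) and Pgr (−0.089 to 0.018). The cause was not tested. All 9 receptors had means above those of 78.1% of genes or more.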

Other observations

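Cyp2b9, a P450 of the CAR-responsive 2B family, had the widest range over the 8 arrays of all 19939 genes, 4.78 on the log2 scale, and it was chosen after its values were seen. It read 6.30, 11.08, 7.51 and 9.85 on the deleted and 10.84, 7.04, 6.78 and 9.93 on the control arrays, so high and low arrays occurred in both groups and the log2 fold change was 0.038 (SE 1.11, limma adjusted p = 0.996). Cyp2b10 read 9.79, 10.66, 9.43 and 10.08 on the deleted and 11.00, 9.36, 9.13 and 10.05 on the control arrays. Both genes were highest on control 1 and control 4 among controls and on deleted 2 and deleted 4 among deleted arrays. Cyp2b13, of the same family, stayed between 4.31 and 4.45. Its mean was above that of only 3.96% of genes, and a set this dim may not show a change. Nr1i3 itself spanned 0.55 over the same arrays and did not follow that order in the deleted group, where deleted 3 was highest.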
